A study of Homo sapiens with 6 samples.

Results

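The S100 calcium-binding proteins are described here in HK-2, an established human cell line that was immortalised from the proximal tubule epithelium of a kidney, through 10 genes chosen by name: S100A2, S100A3, S100A4, S100A6, S100A8, S100A9, S100A10, S100A11, S100A13 and S100A16. Of these, 9 had a value in the deposited table of 35035 genes, and 8 had enough reads to be tested among 19344 tested genes. S100A8 was not analysed here, and S100A9 was too low to test. One group received a circAASS overexpression plasmid (genotype label circAASS-overexpressed, 3 libraries) and the other the empty vector (genotype label WT, 3 libraries). The name circAASS points to a circular RNA from the AASS gene. Cells of all 6 libraries spent 24 h at 1% oxygen and a further 12 h after its return, so no value here is from cells kept at normal oxygen. The sources used here give neither the plasmid's promoter nor the share of cells that took it up.

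Values are RPKM, reads scaled by the length of the gene and by the total of the library. Library totals, estimated from the RPKM values themselves, ran from 47384879 to 58179562 reads with the circAASS plasmid and from 45148425 to 52470054 with empty vector. Whether the repeats were separate cultures is not said in the labels, and p-values therefore reflect the spread between these libraries alone, which may be technical. Only some markers of the labelled cell type were present. The kidney transcription factor PAX8 (42.3 RPKM with circAASS, 25.0 with vector) and the simple-epithelium keratin KRT8 (149 RPKM with circAASS, 127 with vector) were detected. Among brush-border and transport genes, LRP2, CUBN, AQP1, ANPEP and SLC34A1 lay below 0.1 RPKM in every library, but GGT1 and SLC5A2 were detected. GGT1 stood at 7.11 RPKM with circAASS and 9.25 with vector, and SLC5A2 at 1.87 with circAASS and 3.85 with vector. Both were lower with circAASS (limma, adjusted p = 0.00840 and 0.00114). Antisense genes lie over 40.7% of the exons of SLC5A2, so its reads are uncertain. Of 14 tested tubule markers, 5 were called higher, 4 lower and 5 did not pass, beside 16% of all tested genes called higher and 16.3% lower. Of 16 myeloid markers, 15 had a mean below 1 RPKM, and the defining leukocyte gene PTPRC was near 0 in all 6 libraries; the exception was the lysosomal gene CD68 (88.9 RPKM with circAASS, 104 with vector), of whose exon bases 85.8% lie in other genes. Of the 3 myeloid markers tested, 2 did not pass and 1 was called lower. This was CSF1R, at 0.459 RPKM with circAASS and 0.845 with vector (limma, adjusted p = 0.0233). Of 10 squamous and 10 fibroblast markers in the table, 10 and 8 lay below 1 RPKM.

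S100 proteins are small proteins, found in vertebrates, that carry a pair of EF-hand calcium-binding loops and mostly act as dimers. On binding calcium most of them expose a surface that grips a target protein, so that a calcium signal is passed on to the cytoskeleton, to membranes or to enzymes; some are also released from cells and act on receptors. Most of their genes lie in a cluster on the long arm of chromosome 1, next to genes of the skin barrier.

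All 9 genes with a value lie on chromosome 1 (GRCh38, GENCODE 29). S100A10 (151982915 to 151994390) and S100A11 (152032506 to 152047907) lie apart from the rest. S100A9 (153357854 to 153361027), S100A6 (153534599 to 153536244), S100A4 (153543613 to 153550136), S100A3 (153547329 to 153549372), S100A2 (153561108 to 153567890), S100A16 (153606886 to 153613145) and S100A13 (153618787 to 153631360) follow in that order. S100A9 is on the plus strand and the others are on the minus strand. The annotated span of S100A4 encloses S100A3, but their exons do not overlap. In S100A13, other genes cover 33.5% of the exon bases, namely AL162258.1 on the same strand and S100A1 on the opposite one, and its reads are uncertain to that extent. In S100A6, the antisense gene BX470102.1 covers 2.37% of the exon bases. For the 8 genes besides S100A13 no 75-base word of the transcripts occurs in a transcript of another gene.

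The sequences before the start of 4 genes are given because they belong to the 3 genes that rose with circAASS and to S100A3, which lies within the span of S100A4. Each holds the 250 bases before the RefSeq start on GRCh38.p14, minus strand, written 5′ to 3′. These RefSeq starts differ from the starts of the GENCODE spans given above. The S100A4, S100A10 and S100A11 windows lie inside those spans, and the S100A3 window lies partly inside. Capitals mark matches to an AP-1 element (TGANTCA), a GC box (GGGCGG, or CCGCCC on the other strand) or a TATA box (TATAAA, or TTTATA on the other strand).
S100A4, chr1:153545807-153546056: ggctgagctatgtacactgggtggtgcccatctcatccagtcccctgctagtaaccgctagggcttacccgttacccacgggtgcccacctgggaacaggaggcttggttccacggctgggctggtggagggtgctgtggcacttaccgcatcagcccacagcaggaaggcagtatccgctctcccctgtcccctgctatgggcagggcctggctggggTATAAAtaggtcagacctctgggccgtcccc
S100A3, chr1:153549259-153549508: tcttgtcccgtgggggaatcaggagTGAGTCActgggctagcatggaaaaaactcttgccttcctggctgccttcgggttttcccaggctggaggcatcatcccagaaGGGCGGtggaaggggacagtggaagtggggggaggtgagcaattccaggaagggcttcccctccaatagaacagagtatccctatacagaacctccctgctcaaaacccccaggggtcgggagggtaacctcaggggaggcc
S100A10, chr1:151993860-151994109: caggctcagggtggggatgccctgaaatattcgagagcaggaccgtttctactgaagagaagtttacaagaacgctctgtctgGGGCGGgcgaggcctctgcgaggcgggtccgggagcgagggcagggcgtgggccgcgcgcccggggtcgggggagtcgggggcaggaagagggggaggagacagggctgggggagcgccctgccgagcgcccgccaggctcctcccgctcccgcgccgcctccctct
S100A11, chr1:152037005-152037254: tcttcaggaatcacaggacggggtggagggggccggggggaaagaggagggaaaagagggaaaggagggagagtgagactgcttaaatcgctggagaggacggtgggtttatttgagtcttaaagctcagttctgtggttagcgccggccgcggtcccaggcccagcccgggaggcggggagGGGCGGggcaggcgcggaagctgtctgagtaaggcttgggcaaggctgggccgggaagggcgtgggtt
The S100A4 window holds a TATA box that starts 31 bases before the RefSeq start and holds no GC box. The S100A10 and S100A11 windows hold a GC box and no TATA box, and the S100A3 window holds an AP-1 element and a GC box. Among 35116 RefSeq windows of the same length, 42.6% hold a GC box, 10.7% a TATA box and 6.57% an AP-1 element. The 9 genes have 13 windows, of which 7 hold a GC box, 3 a TATA box (S100A4, S100A9 and S100A13) and 2 an AP-1 element (S100A2 and S100A3). ACGTG, the core of the element to which hypoxia-inducible factors bind (CACGT on the other strand), is in 18.5% of all windows and in 1 of the 13, a window of S100A16. These matches describe the letters and do not show that a factor is bound.

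S100A6 and S100A11 made up most of the S100 RNA in these cells, whichever plasmid they carried. By mean RPKM over the 6 libraries S100A6 ranked 126 of 35007 genes and S100A11 ranked 192. S100A16 and S100A10 followed at 544 and 548, S100A13 at 803 and S100A2 at 3206, while S100A3 and S100A4 stood far down at 12494 and 13238. The mean over all 6 libraries was 331 RPKM for S100A6, 80.2 for S100A16, 80.0 for S100A10, 1.28 for S100A3 and 1.06 for S100A4. The order of S100A10 and S100A16 was not the same with both plasmids. The RPKM ratio of S100A10 to S100A16 was 0.9693, 1.26 and 1.121 in the circAASS libraries and 0.836, 0.864 and 0.965 in the vector libraries, so S100A10 was the lower of the pair in all vector libraries and in circAASS library 1 and the higher in the other 2 circAASS libraries. The levels of S100A3 and S100A4 overlapped across the libraries. The 9 genes summed to 796 ± 50.3 RPKM with circAASS and 771 ± 33.3 RPKM with vector (SD, n = 3 each), and the groups overlapped.

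**Figure D1:**
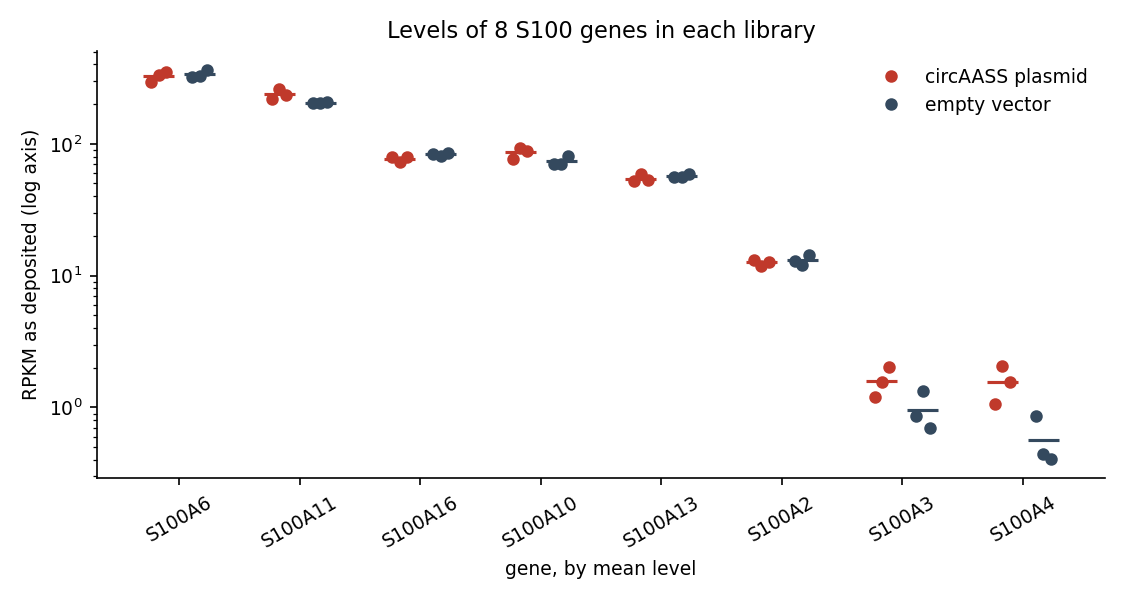
RPKM as deposited of the 8 tested S100 genes on a log axis, with 1 point per library and a line at each group's mean; circAASS libraries stand left of the vector libraries of the same gene. S100A6 lies between 297 and 362 RPKM in all 6 libraries, whereas S100A4 lies between 0.409 and 2.05 RPKM.

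Of the 8 tested genes, 3 rose with the circAASS plasmid (S100A4, S100A11 and S100A10), none fell and 5 did not pass the test (limma, Benjamini-Hochberg adjusted p under 0.05 over all tested genes). At an unadjusted p under 0.05, 0 of the 8 were lower and 4 higher, but the share of all genes at that level was not worked out. With voom on the recovered reads 4 were called higher and 0 lower, beside 3706 higher and 3835 lower of all 19344 tested genes. By adjusted p with limma, 16% of tested genes in the table as a whole were called higher and 16.3% lower, 32.3% in all. After scaling between libraries the groups did not overlap in 3 of the 8 genes, the same 3, against 47.9% of all tested genes. The median log2 fold change of the 8 genes was 0.15 and that of all tested genes was -0.01, and the median absolute change was 0.15 and 0.23. No test of these counts was made, and the account below is of single genes.

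S100A4, also called metastasin, binds the heavy chain of non-muscle myosin and is known for promoting cell motility; in mouse kidney it has been used as a marker of fibroblasts. It had the largest fold change of the 8 genes at a low level. The circAASS libraries had 1.06, 2.05 and 1.57 RPKM, or 52, 122 and 76 reads. The vector libraries had 0.864, 0.440 and 0.409 RPKM, or 40, 23 and 22 reads. Every circAASS library was above every vector library, with circAASS library 1 and vector library 1 the nearest to each other. The means were 1.56 ± 0.494 RPKM with circAASS and 0.571 ± 0.254 RPKM with vector (SD, n = 3 each). The log2 fold change was 1.39 (SE 0.31, 95% interval 0.67 to 2.10, adjusted p = 0.0132), which is a 2.61-fold rise with an interval of 1.59 to 4.29. The call held in all 15 other settings tried, with adjusted p between 0.000683 and 0.0443. The size did not: with 1 RPKM in place of 0.1 added before taking logs, the log2 fold change was 0.73, since S100A4 is near that level. As these are bulk samples, more RNA per cell and more cells with the RNA cannot be told apart. The fibroblast markers summed to between 4.20 and 4.63 RPKM with circAASS and between 3.73 and 4.59 RPKM with vector, and none of the 4 that were tested passed (limma; 1, LUM, had an unadjusted p under 0.05).

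S100A3, whose gene lies inside the span of S100A4, binds zinc besides calcium and is known from the hair cuticle. S100A3 had 1.20, 1.55 and 2.01 RPKM with circAASS, against 0.858, 1.33 and 0.699 RPKM with vector, from 55, 86 and 91 reads against 37, 65 and 35. Vector library 2 lay above circAASS library 1, so the groups overlapped. The log2 fold change of 0.75 (SE 0.25, 95% interval 0.17 to 1.33) did not pass after adjustment over all genes (adjusted p = 0.0556), and was 0.44 with a pseudocount of 1 RPKM. It passed without vector library 2 (adjusted p = 0.0202), without circAASS library 1 (adjusted p = 0.0415) and with a test on the recovered reads (voom, adjusted p = 0.0310). Over all 15 other settings the adjusted p ran from 0.0202 to 0.153.

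S100A11 binds the tail of annexin A1 and takes part in membrane repair and in the growth control of epithelia. S100A11 had 218, 261 and 233 RPKM with circAASS and 205, 206 and 207 RPKM with vector. Each value rested on 6284 reads or more. All circAASS libraries were above all vector libraries, which hardly differed among themselves (205.6 ± 0.996 RPKM, against 237 ± 21.6 with circAASS; SD, n = 3 each). The log2 fold change was 0.28 (SE 0.07, 95% interval 0.12 to 0.43, adjusted p = 0.0181), a 1.21-fold rise. The call was near the threshold in several settings. It was lost narrowly without vector library 2 (adjusted p = 0.0517), without vector library 3 (adjusted p = 0.0510) and without an intensity trend and robust prior (adjusted p = 0.0502), and the log2 fold change stayed between 0.20 and 0.32 over the 15 settings.

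S100A10 differs from the rest of the family in that its loops have lost the ability to bind calcium; it sits with annexin A2 in a complex at the plasma membrane. S100A10 had 77.0, 92.2 and 88.8 RPKM with circAASS, against 70.1, 70.1 and 81.5 RPKM with vector. As deposited, vector library 3 lay above circAASS library 1, so the groups overlapped. After scaling, the values were 80.42, 94.98 and 89.19 with circAASS and 68.85, 68.5 and 78.65 with vector, and the groups did not overlap. The log2 fold change of 0.29 (SE 0.08, 95% interval 0.10 to 0.48, adjusted p = 0.0286) is a 1.22-fold rise. This is the least firm of the 3 calls. It was lost in 7 of the 15 other settings, although the direction held in all of them. With library size alone the log2 fold change was 0.22 (adjusted p = 0.0930). It was also lost without circAASS library 2 (adjusted p = 0.0728), without circAASS library 3 (adjusted p = 0.0682), without vector library 1 (adjusted p = 0.0781) and without vector library 2 (adjusted p = 0.0861).

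**Figure D2:**
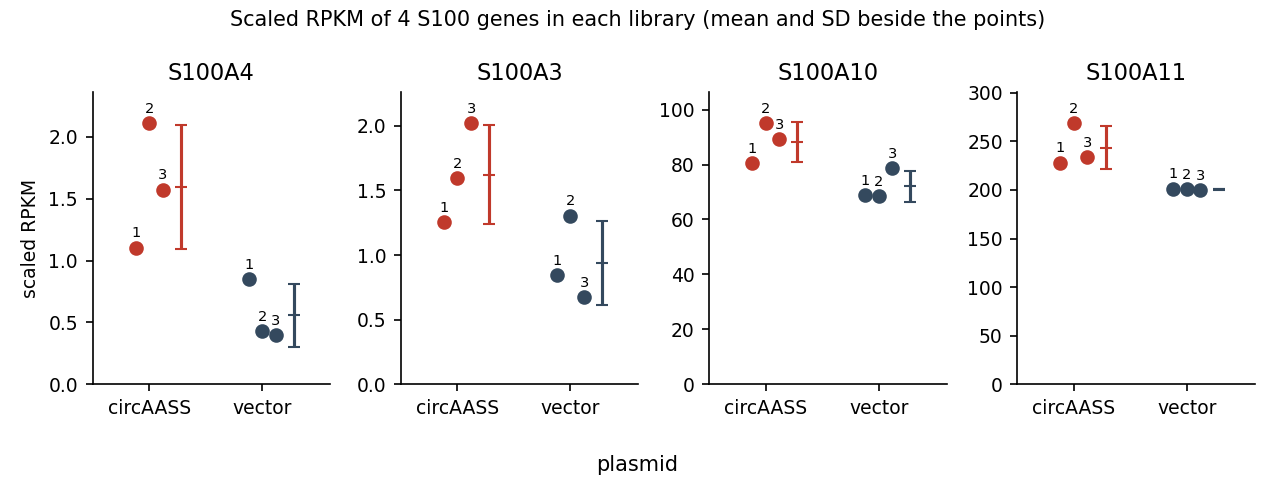
Scaled RPKM of S100A4, S100A3, S100A10 and S100A11, with 1 numbered point per library, circAASS libraries left of vector libraries, and the mean with its SD beside the points; the axes start at 0 and differ between panels. The groups are apart for S100A4, S100A10 and S100A11 and overlap for S100A3, where vector library 2 reaches 1.30.

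S100A6, or calcyclin, which binds the ubiquitin-ligase adaptor CACYBP and is abundant in dividing cells, did not pass the test. It stood at 297, 332 and 348 RPKM with circAASS and at 319, 329 and 362 RPKM with vector. The groups overlapped throughout, and the interval of the fold change ran from 0.914 to 1.13 (log2 fold change 0.02, SE 0.07, adjusted p = 0.811). S100A16, a widely expressed member known from fat-cell differentiation, stood at 79.5, 73.2 and 79.2 RPKM with circAASS and at 83.8, 81.1 and 84.5 RPKM with vector. As deposited all circAASS libraries of S100A16 were below all vector libraries. After scaling the groups overlapped, and the interval of the fold change ran from 0.901 to 1.06 (log2 fold change -0.03, SE 0.05, adjusted p = 0.651).

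S100A13, which takes part in the release of fibroblast growth factor from cells without a signal peptide, stood at 51.9, 58.6 and 52.9 RPKM with circAASS and at 55.7, 56.2 and 59.3 RPKM with vector. Its fold change had an interval of 0.911 to 1.10 (log2 fold change 0.00, SE 0.06, adjusted p = 0.969). S100A2, a mainly nuclear member of keratinocytes, stood at 13.2, 11.9 and 12.7 RPKM with circAASS and at 12.8, 12.1 and 14.5 RPKM with vector. The interval of its fold change was 0.896 to 1.15 (log2 fold change 0.02, SE 0.08, adjusted p = 0.873). For these 4 genes, missing the threshold does not show equal levels. With library size alone the log2 fold changes of S100A2, S100A6, S100A13 and S100A16 were -0.05, -0.05, -0.07 and -0.11, beside a median over all genes of -0.08, and none of the 4 was called.

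S100A9 forms calprotectin with S100A8, the main cytosolic protein pair of neutrophils, and is induced in injured epithelia. It had 2 reads in each circAASS library, against 0, 4 and 0 reads in the vector libraries. The limit that 3 reads set was 0.0894 to 0.110 RPKM in the circAASS libraries and 0.0991 to 0.115 RPKM in the vector libraries. S100A9 was therefore at or near the limit of detection with both plasmids, no fold change is given, and at this depth a difference was not detectable. Such limits cover counting error only, and most read pairs gave 2 counts, so that 2 reads may be 1 fragment.

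The make-up of the S100 RNA differed between the groups in the share taken by single genes, which are described here without a test because the shares of 1 library are tied to each other. S100A11 took 28.5% to 31.3% of the summed S100 RPKM with circAASS and 25.5% to 27.4% with vector. S100A10 took 10.4% to 11.1% with circAASS and 9.27% to 10.1% with vector. S100A6 took 39.9% to 42.5% with circAASS and 42.7% to 44.7% with vector. S100A13 took 6.46% to 7.04% with circAASS and 7.32% to 7.45% with vector, and S100A4 took 0.143% to 0.246% with circAASS and 0.0505% to 0.116% with vector. The shares of these 5 genes did not overlap between the groups, those of the other 4 did, and all are free of the scaling between libraries. Separated groups are common in these data, with 47.9% of the genes tested showing them by scaled RPKM. No such figure was worked out for shares. S100A6 and S100A13 did not pass the test of level (log2 fold changes 0.02 and 0.00). Their lower shares therefore do not by themselves show lower levels. For each unit of S100A6 the cells held 0.730 ± 0.0586 of S100A11 with circAASS and 0.612 ± 0.0367 with vector (ratio of RPKM, SD, n = 3 each).

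**Figure D3:**
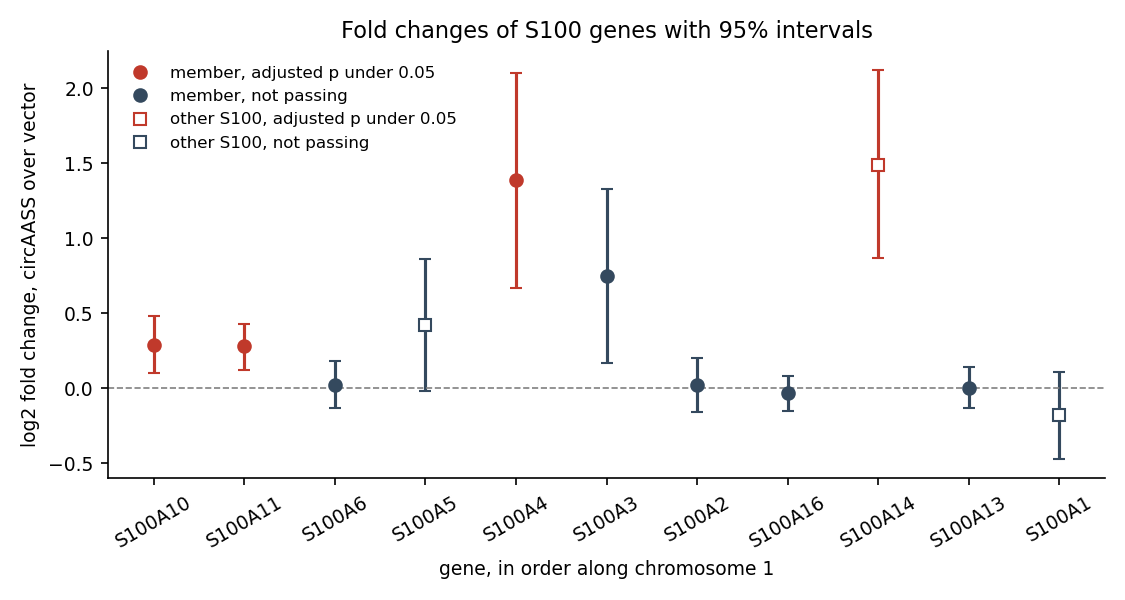
Log2 fold changes, circAASS over vector, with 95% intervals for the 8 tested members (circles) and 3 further S100 genes (squares), in the order of their starts along chromosome 1; the dashed line is no change. The intervals of S100A4 and S100A14 are wide and lie well above 0, and those of S100A6, S100A2, S100A16 and S100A13 enclose 0. S100A14 reached the minimum for testing only through the circAASS group.

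Of 11 other S100 genes listed, 5 were in the table and 3 could be tested, of which 1 was called higher. S100A14, an epithelial member linked to cell invasion, stood at 0.718, 0.713 and 0.645 RPKM with circAASS and at 0.347, 0.123 and 0.149 RPKM with vector. The log2 fold change was 1.49 (SE 0.27, adjusted p = 0.00593), and 0.51 with a pseudocount of 1 RPKM. S100A14 had 44, 53 and 39 reads with circAASS and 20, 8 and 10 reads with vector, so it reached the minimum for testing, 10 reads in 3 libraries, only with the circAASS group. S100A5 (log2 fold change 0.42, adjusted p = 0.132) and S100A1 (-0.18, adjusted p = 0.296) did not pass. Other genes overlap 18.3% of the exon bases of S100A1. Of 7 fused-type proteins, long barrier proteins of skin that begin with an S100 domain, 2 were tested, of which 1 was called higher and 1 lower. Beside both counts, 16% of all tested genes were called higher and 16.3% lower. With a pseudocount of 1 RPKM their log2 fold changes were 0.19 for FLG and -0.52 for TCHH. FLG, which encodes filaggrin, rose to 0.3598, 0.2805 and 0.2881 RPKM with circAASS, against 0.156, 0.178 and 0.153 with vector (log2 fold change 0.69, adjusted p = 0.0156). The call of FLG was lost without a filter (limma, adjusted p = 0.0806). TCHH, which encodes trichohyalin, fell to 0.292, 0.157 and 0.169 RPKM with circAASS, against 0.602, 0.869 and 0.790 with vector (log2 fold change -1.44, adjusted p = 0.00345).

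Of 50 genes in the table that start within 500 kb of a member, 33 were tested, of which 6 rose, 7 fell and 20 did not pass (median log2 fold change -0.02), beside 16% of all tested genes called higher and 16.3% lower. These counts include genes already described, with S100A14 and FLG among the rises and TCHH among the falls. S100A14 reached the minimum for testing only through the circAASS group. Nearest to S100A10 or S100A11, 1 of 14 rose and 4 fell, and nearest to another member 5 of 19 rose and 3 fell. The smallest p belonged to CRTC2, a coactivator of CREB, at 6.58 ± 0.457 RPKM with circAASS and 4.43 ± 0.176 with vector (log2 fold change 0.63, adjusted p = 0.000858). ILF2, an RNA-binding protein, rose by a log2 fold change of 0.46 (adjusted p = 0.00125). SNAPIN, which takes part in vesicle fusion and lysosome transport, fell by 0.57 on the log2 scale (adjusted p = 0.00279). AL450992.2, an annotated gene near S100A10, fell by 1.13 on the log2 scale (adjusted p = 0.00143).

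Intracellular partners of S100 proteins were counted next. Of 25 listed partners 23 were tested, and 9 rose, 4 fell and 10 did not pass (median log2 fold change 0.13). Over all tested genes 16% were called higher and 16.3% lower. The annexins ANXA1 and ANXA2 were among the 9. ANXA1, the annexin that S100A11 binds, stood at 11.5, 13.98 and 13.4 RPKM with circAASS and at 8.61, 9.01 and 9.77 RPKM with vector. Its groups did not overlap, and its log2 fold change of 0.57 (SE 0.08, adjusted p = 0.00213) had a larger estimate than that of S100A11. ANXA2 (chromosome 15, 60347134 to 60402883), named here after its values were seen because it is the partner of S100A10, stood at 41.0, 49.7 and 47.5 RPKM with circAASS and at 38.7, 38.0 and 41.1 RPKM with vector. Vector library 3 lay just above circAASS library 1, as it did for S100A10. ANXA2 rose by a log2 fold change of 0.30 (SE 0.07, adjusted p = 0.0169), beside 0.29 for S100A10, and its call was lost without vector library 2 (adjusted p = 0.0551) and with library size alone (adjusted p = 0.0582). The RPKM ratio of S100A10 to ANXA2 was 1.88, 1.85 and 1.87 in the circAASS libraries and 1.81, 1.85 and 1.98 in the vector libraries, so the range in the vector libraries enclosed that in the circAASS libraries. The ratio of S100A11 to ANXA1 was 18.3 ± 0.841 with circAASS and 22.6 ± 1.33 with vector (SD, n = 3 each), and these groups did not overlap. ANXA2 has processed pseudogenes of near-identical sequence, so its reads are uncertain.

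Tissue plasminogen activator and AHNAK, which are known to meet the S100A10 and annexin A2 complex, went opposite ways. PLAT, which encodes the plasminogen activator, stood at 7.12, 7.92 and 7.90 RPKM with circAASS and at 3.66, 3.84 and 3.80 RPKM with vector, and its log2 fold change of 1.07 (SE 0.06, adjusted p = 0.000121) had the smallest p of the list. AHNAK, a giant scaffold protein beneath the membrane, fell to 24.9, 24.4 and 28.9 RPKM with circAASS, against 37.1, 38.6 and 35.8 with vector (log2 fold change -0.44, adjusted p = 0.00286). PLAUR, the urokinase receptor, fell to 31.2, 24.1 and 28.5 RPKM with circAASS, against 39.9, 42.9 and 43.5 with vector (log2 fold change -0.52, adjusted p = 0.00625). MYH9, the myosin heavy chain that S100A4 binds, fell by 0.21 on the log2 scale (adjusted p = 0.0274), but its call was lost without circAASS library 2 or 3 or vector library 1 or 2 (adjusted p up to 0.118).

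STIP1 and 5 others completed the partners that rose. STIP1, a co-chaperone that joins the chaperones HSP70 and HSP90, stood at 53.1, 57.2 and 58.5 RPKM with circAASS and at 44.9, 45.9 and 46.8 RPKM with vector (log2 fold change 0.37, SE 0.05, adjusted p = 0.00145). The other 5, named after their values were seen, were CACYBP (0.32), SUGT1 (0.37), HSP90AA1 (0.26), FKBP4 (0.31) and the potassium channel KCNK3 (0.50), with adjusted p of at most 0.0462. With a pseudocount of 1 RPKM the log2 fold change of KCNK3 was 0.25. The call of KCNK3 was lost in 5 of the 6 fits without 1 library, all but that without circAASS library 1 (adjusted p up to 0.123), and that of SUGT1 without circAASS library 2 or vector library 2 (adjusted p up to 0.0689). S100A6, the partner of CACYBP, did not pass.

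**Figure D4:**
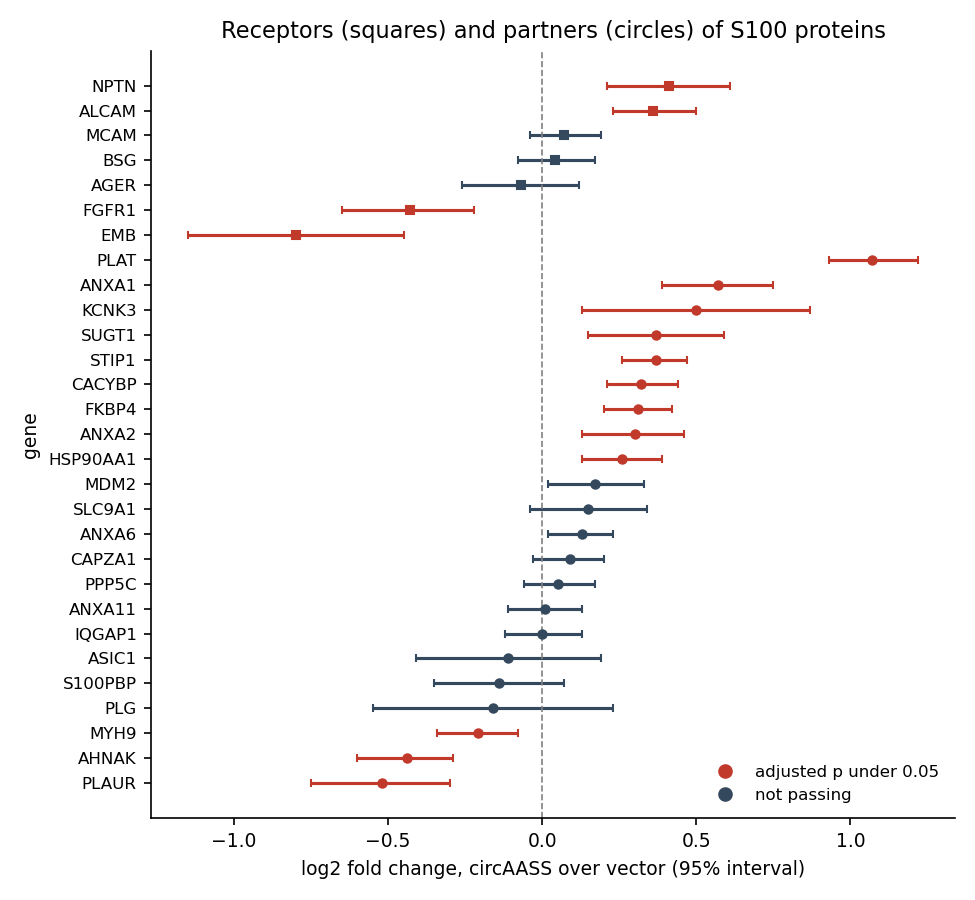
Log2 fold changes, circAASS over vector, with 95% intervals for the 7 tested receptors (squares) and 22 of the 23 tested partners (circles) of S100 proteins, ordered by size within each list; red marks an adjusted p under 0.05. PLAT stands apart at 1.07 and EMB lies lowest at -0.80, and both lists hold rises and falls.

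Receptors bind S100 proteins outside the cell. Of 9 listed, 7 were tested, and 2 rose, 2 fell and 3 did not pass (median log2 fold change 0.04), beside the same 16% and 16.3% of all tested genes. ALCAM, an adhesion molecule, stood at 43.3, 49.8 and 49.9 RPKM with circAASS and at 39.1, 38.1 and 39.3 RPKM with vector (log2 fold change 0.36, adjusted p = 0.00364). NPTN, or neuroplastin, rose to 7.43, 9.46 and 8.69 RPKM with circAASS, against 6.75, 6.44 and 6.93 with vector (log2 fold change 0.41, adjusted p = 0.0109). EMB, or embigin, of the same protein family as NPTN, fell to 0.341, 0.458 and 0.377 RPKM with circAASS, against 0.75, 0.768 and 0.856 with vector (log2 fold change -0.80, adjusted p = 0.00663, and -0.34 with a pseudocount of 1 RPKM). FGFR1, a growth factor receptor that S100B can bind, fell by 0.43 on the log2 scale (adjusted p = 0.0111), and by 0.28 with that pseudocount. AGER, the receptor for advanced glycation end products and the best-known S100 receptor, stood at 2.45, 2.50 and 2.26 RPKM with circAASS and at 2.66, 2.71 and 2.61 RPKM with vector, and did not pass (log2 fold change -0.07, adjusted p = 0.537). TLR4, a receptor of calprotectin, had at most 0.0379 RPKM in any library.

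EF-hand proteins outside the S100 family, which bind calcium through the same kind of loop, were counted in the same way. Of 32 listed, 29 were tested, and 5 rose, 6 fell and 18 did not pass (median log2 fold change 0.00), beside 16% of all tested genes called higher and 16.3% lower. Only 3 fell without circAASS library 1, vector library 2 or vector library 3. CALB2, or calretinin, a calcium buffer, rose to 0.918, 1.41 and 1.13 RPKM with circAASS, against 0.0520, 0.0921 and 0.358 with vector (log2 fold change 2.44, SE 0.39, adjusted p = 0.00402). It had 75, 140 and 91 reads with circAASS and 4, 8 and 32 reads with vector, so it reached the minimum for testing, 10 reads in 3 libraries, only through the circAASS group, and with a pseudocount of 1 RPKM its log2 fold change was 0.91. CALM2, 1 of the calmodulin genes, stood at 338, 339 and 317 RPKM with circAASS and at 283, 281 and 282 RPKM with vector (log2 fold change 0.30, adjusted p = 0.00540). CAPN2 (0.29), PPP3R1 (0.35) and TBC1D9 (0.29) also rose, and PPP3R1 shares 34.5% of its exon bases with other genes. CETN3, a centrin of the centrosome, fell by 0.40 on the log2 scale (adjusted p = 0.00539).

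Of 17 genes of calcium entry, release and extrusion, 16 were tested, and 4 rose, 2 fell and 10 did not pass (median log2 fold change -0.01), again beside 16% and 16.3% of all tested genes. ATP2B1, the main calcium pump of the plasma membrane, stood at 27.59, 29.95 and 30.47 RPKM with circAASS and at 18.5, 18.3 and 18.6 RPKM with vector (log2 fold change 0.74, SE 0.05, adjusted p = 0.000154). ATP2A2, the calcium pump of the endoplasmic reticulum (0.31), ORAI2, a subunit of calcium-release-activated channels (0.34), and the channel TRPC1 (0.38) also rose. ITPR3, a release channel of the endoplasmic reticulum, fell by 0.44 on the log2 scale (adjusted p = 0.00653), and the pump ATP2B4 by 0.23 (adjusted p = 0.0449). The call of ATP2B4 was lost in 5 of the 6 fits without 1 library, all but that without circAASS library 3 (adjusted p up to 0.128), and that of TRPC1 without circAASS library 2 or 3 or vector library 1 or 2 (adjusted p up to 0.0887).

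Genes were compared with S100A4 over the 6 libraries by the root-mean-square distance of log2 values centred on the vector mean. Left out were genes averaging under 1 RPKM, genes without a listed symbol and genes with clone-type names. The nearest of the rest were RN7SL2 (distance 0.229), SLCO4A1-AS1 (0.277) and TMEM158 (0.287). RN7SL2, an RNA of the signal recognition particle that carries no poly(A) tail and has many near-identical copies, stood at 10.49, 13.23 and 14.98 RPKM with circAASS and at 6.42, 4.12 and 3.43 RPKM with vector. If the libraries were selected for poly(A), the level of an RNA without a tail can depend on how clean the selection was. The sample titles do not give the selection, and any part of it in the S100A4 result was not tested. SLCO4A1-AS1, an antisense transcript, stood at 4.53 ± 0.442 RPKM with circAASS and 1.62 ± 0.323 with vector, and TMEM158 at 1.45 ± 0.0477 with circAASS and 0.602 ± 0.183 with vector (SD, n = 3 each).

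**Figure D5:**
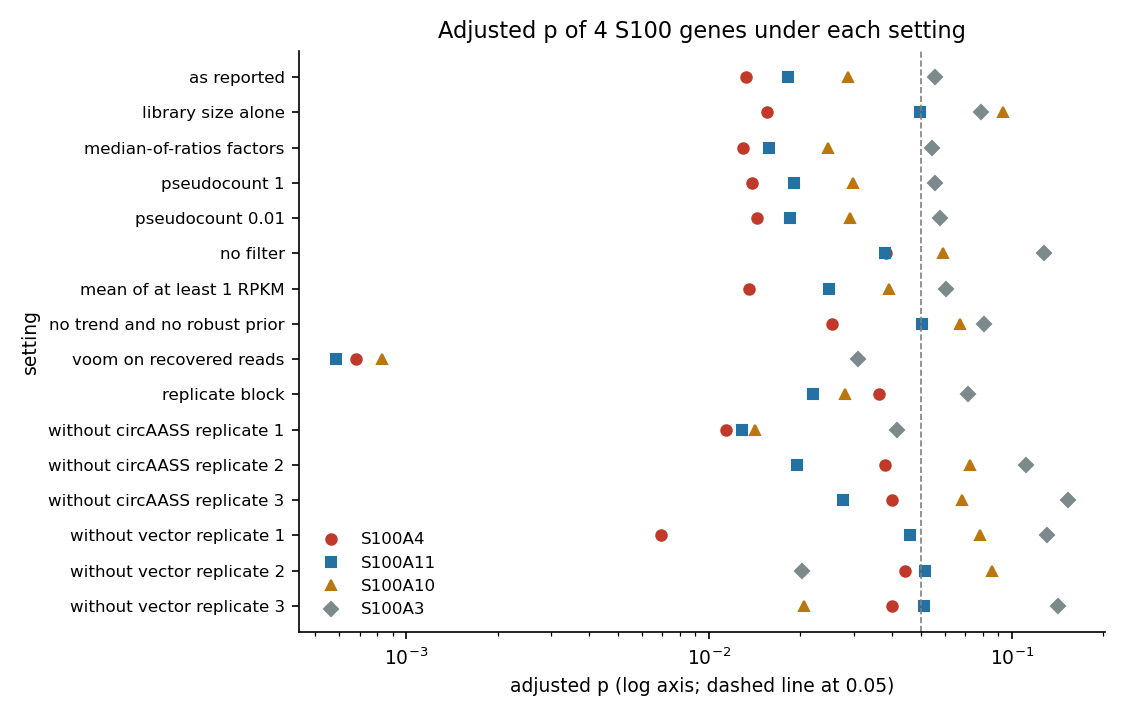
Benjamini-Hochberg adjusted p of S100A4, S100A11, S100A10 and S100A3 as reported and under 15 other settings, on a log axis with a dashed line at 0.05. S100A4 lies left of the line throughout, S100A11 crosses it narrowly in 3 settings, S100A10 crosses it in 7, and S100A3 lies left of it in 3.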

How the data were processed

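RNA was sequenced from 6 HK-2 libraries, 3 with the circAASS plasmid and 3 with empty vector, grouped by the sample titles. The values in the deposited table are RPKM, per the file's values and labels, although it is presented as counts; 1 column belongs to each library and no column was left unmatched. Per the submitters' processing notes, the tools were Trimmomatic 0.36, featureCounts, Subread 1.5.1 and edgeR 3.12.1, and the build GRCh38. The sources used here give no aligner, annotation version or strand setting of the counting, so reads of overlapping or antisense genes can have been assigned to the wrong gene. The labels give 12 h of reoxygenation, which is used here, whereas the design text of the series gives 24 h after the treatment. Left out were 28 genes whose names read as dates.

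Library totals and whole read numbers were recovered from the deposited RPKM. Each total was fitted so that values at annotated gene lengths came out as whole reads. For 24697 genes the exon union in GENCODE 29 gave the length, and with it the values of 22385 (90.6%) came out whole in all 6 libraries within 0.02 reads. For 12615 others the smallest length that made the values whole was used. An annotated length served for 14046 of the tested genes, and a length so found for the other 5298. Together the reads made up 99.56% to 99.63% of the library totals. Even numbers made up 78.6% of values from 1 to 20 reads, as mates were mostly counted separately, so counting error is larger than the read numbers imply.

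RPKM were scaled with trimmed-mean (TMM) factors, computed from these reads with 30% of ratios and 5% of levels trimmed; the factors were 0.958, 0.971 and 0.996 with circAASS and 1.018, 1.023 and 1.036 with vector. A gene was tested when 3 or more libraries had 10 or more reads, scaled to the median library, and all libraries together 15. limma 3.58.1 (R 4.3.3), with an intensity trend and robust prior and the group as the sole term, tested log2(RPKM + 0.1), a scale that understates changes of low genes. The test was two-sided, and Benjamini-Hochberg adjustment over all 19344 tested genes set the threshold of 0.05. Each mean ± SD is of RPKM as deposited. The fit was tested on simulated data. Python 3.11, pandas 2.3.3, numpy 2.4.6 and matplotlib 3.10.9 did the rest. The alternatives were other scalings, pseudocounts, filters and priors, voom on the recovered reads, a replicate block, and leaving out each library in turn.

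The members and the gene lists were chosen with earlier results of these data known. Besides all members, the genes named are those of each list with the 4 smallest p, all calls of a direction with 5 or fewer, and the 3 nearest to S100A4; others are said to have been named after their values were seen. Promoter sequences are from RefSeq (GRCh38.p14), and all 9 members with a value matched. Values of a few list genes are not reported here, although the counts include them.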

Additional observations from a re-analysis of the deposited data

How the results depend on the processing

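Of the 3 S100 genes called higher, 1 (S100A4) was called in all 15 alternatives. Without an intensity trend and robust prior 1 S100 gene was called higher, with library size alone 2, without a filter 2 and with voom on the recovered reads 4; leaving out 1 library gave between 2 and 4. No alternative called an S100 gene lower. Among all genes 4202 to 7541 were called, the fewest without vector library 2. Scaling by library size alone gave 2159 higher and 4022 lower genes, against 3091 and 3149 as reported. Without a filter 2081 genes were lower, and without vector library 2 the number was 2011. Of the calcium transport genes 4 were lower with library size alone, with voom and among genes averaging 1 RPKM or more, and 1 without a filter or without the trend and robust prior; without 1 library 1 to 2 were. Of the other EF-hand genes 8 were higher with voom, 3 lower without a filter and 3 to 7 lower without 1 library. Without a filter 0 fused-type genes were higher. Among genes averaging 1 RPKM or more, where fewer genes were tested, 0 other S100 genes were higher, 0 fused-type genes were higher and 0 lower, 1 receptor was lower, and 3 neighbours were higher. Where a cause is not given here, the cause was not tested. No called gene named in the text changed direction.

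Replicate numbers did not pair the libraries: deviations of same-numbered libraries from their group means correlated at -0.005, -0.024 and 0.023 across genes, which are not independent. With the replicate block 3 S100 genes were called higher and 5428 genes in all; the calls of KCNK3 (adjusted p = 0.0900) and SUGT1 (adjusted p = 0.0561) were lost. Depth limits S100A3, S100A4 and S100A9, with at most 122 reads in a library, and a single cell line with 3 libraries a group limits the rest.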
